A study of Saccharomyces cerevisiae with 6 samples.

Results

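The positions described here are those of the yeast 35S rRNA gene where the newest stretch of RNA is rich in G and C. A position was called GC-rich when at least 8 of the 10 nucleotides that end at it are G or C, read from the base given for each position, and only positions with 10 or more nucleotides of 35S up to them could qualify. The rule used no measured value. It found 200 of the 6858 positions, of which 163 had 8 and 37 had 9 of 10 G or C. None had 10 of 10.

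RNA polymerase I (Pol I) transcribes the rDNA into a precursor in which the 18S, 5.8S, and 25S rRNAs are separated and flanked by spacers that processing later removes. In an elongating polymerase the newest nucleotides of the RNA are base paired with the template DNA strand. G and C pair through more hydrogen bonds than A and U or T, so a GC-rich stretch forms a stronger RNA:DNA hybrid. Such hybrids are known from other polymerases to resist backward movement of the enzyme, whereas weak hybrids favor it.

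The mutant strain was *rpa190-F1205H*, a *Saccharomyces cerevisiae* strain whose largest Pol I subunit carries a histidine in place of a phenylalanine of the trigger loop, the mobile element that closes over the incoming nucleotide. Its *RPA190* gene was deleted and the mutant allele was carried on a plasmid, and Pol I was pulled down through an HA tag on the Rpa135 subunit. It was compared with the wild-type (WT) strain, which the methods describe only as a suitable parent. Each strain gave 3 libraries from triplicate cultures grown at 30 °C, and nascent RNA was sequenced from its 3′ end (NET-Seq), so that each read of nascent RNA marks the last nucleotide added by 1 polymerase. Whether the cultures of a strain were independent beyond this is not stated, so p-values measure the spread between these libraries.

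Values are in RPM, with 1000000 as each library's sum over the 35S gene up to the terminator T1 at position 6739. They are shares of a library and hold no information on the total amount of polymerase. The 35S gene held 3155425 to 3687549 reads in the mutant libraries and 2028349 to 3087916 in the WT libraries, of which the GC-rich positions held 115406 to 143486 in the mutant and 74867 to 113529 in WT. Spacers held 12.2% ± 0.115 of the reads in the mutant and 4.14% ± 0.316 in WT (SD, n = 3 each), so the deposited scaling gives higher mutant values, in spacers and genes alike, than a scaling to equal spacer totals would. The study considers contamination by mature rRNA, which carries no information on the polymerase, likely within the rRNA genes, and its part in the values at genic positions was not tested.

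The GC-rich positions were spread unevenly over the gene. The 18S gene held 66, the 5.8S gene 6, and the 25S gene 97, together 169 in genes. The first external spacer ETS1 held 4, the first internal spacer ITS1 17, and the last external spacer ETS2 10, together 31 in spacers, while the second internal spacer ITS2 held none. They fell into 66 runs of consecutive positions, 26 of them a single position and the longest 12 positions. Neighbors in a run share most of their 10 nucleotides, so they are not independent of each other.

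The sequences below are those on which the results turn, and they come from the bases deposited with the values. Capitals mark the nucleotides of the 10-nucleotide windows, and lower case marks the 6 nucleotides on either side. The first pair are the longest runs of ITS1 and ETS2, at XII:464958-464988 and XII:460872-460902, and the second pair are the longest runs of the 18S and 25S genes, at XII:465396-465426 and XII:462638-462670, all on the minus strand of build R64.
run 2597 to 2606: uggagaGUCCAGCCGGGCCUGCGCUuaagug
run 6683 to 6692: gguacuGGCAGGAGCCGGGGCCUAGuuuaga
run 2159 to 2168: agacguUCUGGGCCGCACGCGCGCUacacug
run 4915 to 4926: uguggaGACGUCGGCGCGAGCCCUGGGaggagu

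Single positions are shown with the last nucleotide of their window as the position itself. Position 503 (XII:467061-467082) was the highest GC-rich position of ETS1 in both strains, and 2619 (XII:464945-464966) stood alone in ITS1. Position 2999 (XII:464565-464586) was the highest GC-rich position of 5.8S in the mutant. The highest of all GC-rich positions in both strains was 5046 (XII:462518-462539). Position 2207 in 18S (XII:465357-465378) had the largest rise among the GC-rich positions of the genes.
position 503: uggugaCGGAGUGCGCugguca
position 2619: gcuuaaGUGCGCGGUCuugcua
position 2999: gguauuCCAGGGGGCAugccug
position 5046: gcuuguGACGGCCCGUgaaaau
position 2207: aaccuuGGCCGAGAGGucuugg

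The windows held 45.85% G and 36% C, against 25.8% G and 18.2% C in the windows of all other positions. G outnumbered C in 109 windows, C outnumbered G in 38, and they were equal in 53. The position itself was G at 90, C at 72, A at 18, and U at 20 of the 200 positions.

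All 200 positions were tested with limma on log2(RPM + 1), with 3 libraries per strain and Benjamini-Hochberg adjustment over 6843 positions. The GC-rich positions were higher in *rpa190-F1205H* at 88 and lower at 51, and 61 did not pass the test. These are 44% and 25.5% of the 200, beside 40.6% of all tested positions that were higher and 33.9% that were lower. The ranges of the strains did not overlap at 149 of the 200 positions, 90 of them higher and 59 lower, and the same held for 78.1% of all positions. The median log2 fold change was 0.17 over the GC-rich positions and 0.05 over the others. The counts for the whole set were thus near the background. After scaling to equal spacer totals only 24 of the 200 were higher and 160 were lower, since that scaling moved the median log2 fold change of all positions by -1.53.

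**Figure D1:**
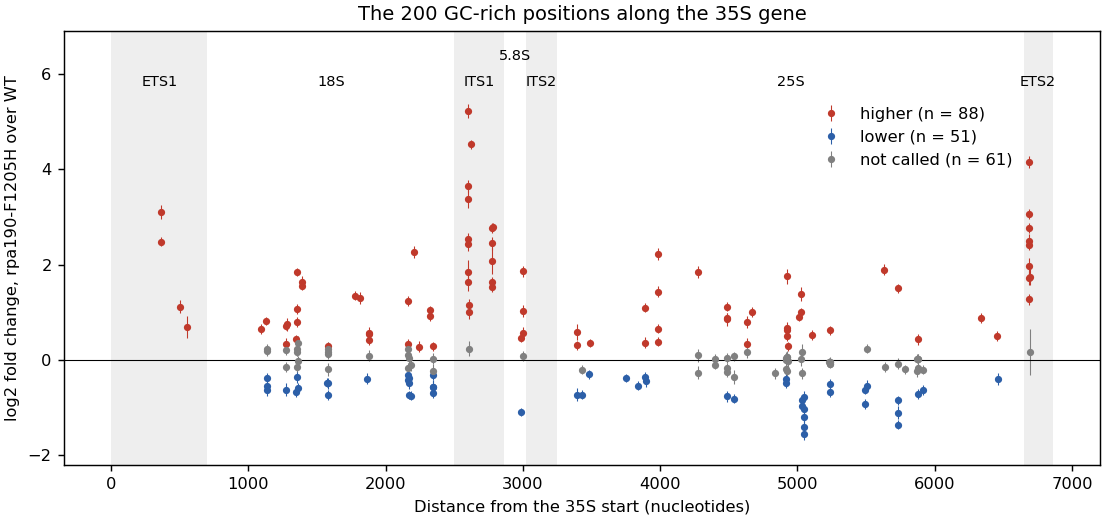
The log2 fold change, *rpa190-F1205H* over WT, of each of the 200 GC-rich positions against its distance from the 35S start in nucleotides. Points are limma estimates on log2(RPM + 1), bars are standard errors, grey bands are spacers, and colors give the call (88 higher, 51 lower, 61 not called). All points in the spacers lie above 0, and those in the genes lie on both sides.

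The direction depended on where the position lay. In the spacers 29 of the 31 GC-rich positions were higher in the mutant and none was lower, beside 82.5% higher and 4.42% lower over all spacer positions, with a median log2 fold change of 2.41, whereas 1.59 was the median of the other spacer positions. In the genes 59 of 169 were higher and 51 lower, beside 29% higher and 42.1% lower over all genic positions, with a median of 0.02 against -0.17 for other genic positions. The 2 spacer positions that did not pass were 2605 in ITS1 and 6692 in ETS2. The counts by spacer stand beside high backgrounds, because 87.5% of all ETS1 positions, 84.4% of all ITS1 positions, and 53.6% of all ETS2 positions were higher in the mutant. Lower calls were made at 3.02% of all ETS1, 3.89% of all ITS1, and 10.1% of all ETS2 positions. Of the GC-rich positions, 4 of 4 in ETS1, 16 of 17 in ITS1, and 9 of 10 in ETS2 were higher and none was lower.

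To ask whether GC-rich positions differed from their surroundings, their mean RPM was divided by the mean of all other positions of the same region within each library, and the log2 ratio was compared between strains. This ratio does not depend on how a library was scaled. It was computed for the 5 regions with at least 5 GC-rich positions, and two-sided exact permutation tests of 3 libraries against 3 cannot give a p below 0.1.

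In ITS1, GC-rich positions stood further above the rest of the region in the mutant than in WT. They averaged 107 ± 2.79 RPM in the mutant and 18.9 ± 1.59 RPM in WT (SD, n = 3 each), while the other ITS1 positions averaged 51.8 RPM in the mutant and 16.6 RPM in WT. The log2 ratio was 1.04 ± 0.06 in the mutant and 0.19 ± 0.02 in WT, a difference of 0.85 (exact permutation p = 0.1, adjusted p = 0.167 over 5 regions), and the libraries did not overlap. GC-rich positions made up 4.71% of ITS1 and held 9.25% ± 0.325 of its reads in the mutant, against 5.35% ± 0.0528 in WT. The difference fell to 0.53 without position 2599 and to 0.30 when 7 of 10 G or C sufficed, and it was -0.13 when GC-rich was defined on the last 8 nucleotides. Both of these wider definitions take in position 2617, which averaged 197 RPM in the mutant and 321 RPM in WT. Its weight in the 2 values was not tested.

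The run at 2597 to 2606 held 10 of the 17 GC-rich positions of ITS1. Their mean was 112, 106, and 117 RPM in mutant replicates 1 to 3 and 15.8, 19.9, and 20.6 RPM in WT replicates 1 to 3. All mutant libraries thus lay above all WT libraries by a wide margin. Position 2599 was the highest of the run and had the largest log2 fold change of the 200 positions, with 395, 397, and 442 RPM in the mutant and 8.16, 9.37, and 13.0 RPM in WT (log2 fold change 5.23, SE 0.15, limma adjusted p = 4.6e-08). It ranked 4 of the 361 ITS1 positions in the mutant and 170 in WT. Position 2598, 1 nucleotide before it, had 116, 123, and 155 RPM in the mutant and 8.87, 10.8, and 8.75 RPM in WT, and position 2603 had 158, 151, and 134 RPM in the mutant and 15.6, 9.37, and 15.9 RPM in WT. Their log2 fold changes were 3.65 and 3.38.

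The run was not uniform. Position 2605, also with 9 of 10 G or C, had 66.7, 54.5, and 78.1 RPM in the mutant and 47.2, 58.2, and 62.8 RPM in WT (log2 fold change 0.24, adjusted p = 0.19), and the strains overlapped. It was the highest position of the run in WT. Position 2604, directly before it, had 27.7, 26.3, and 30.7 RPM in the mutant and 10.3, 13.8, and 12.3 RPM in WT. These adjacent positions have the same number of G or C and differed in level in both strains.

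Position 2619, a single GC-rich position further 3′ in ITS1, had 136, 125, and 136 RPM in the mutant and 5.32, 4.93, and 4.21 RPM in WT (log2 fold change 4.52, SE 0.10, adjusted p = 3.8e-08). Position 2617 lies just upstream and has 7 of 10 G or C, so it is outside the rule, and it was chosen after its values were seen. It went the other way, with 168, 215, and 207 RPM in the mutant and 287, 339, and 339 RPM in WT (log2 fold change -0.71, adjusted p = 0.00086). It ranked 19 in the mutant and 2 in WT of 361.

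The third ITS1 run, at 2773 to 2778, averaged 88.3, 99.8, and 94.6 RPM in the mutant and 21.3, 22.4, and 21.2 RPM in WT. Its 6 positions were all higher in the mutant. Position 2776, the highest GC-rich position of ITS1 in WT, had 194, 237, and 229 RPM in the mutant and 72.8, 75.0, and 63.5 RPM in WT (log2 fold change 1.63, SE 0.11, adjusted p = 3.2e-06). With equal spacer totals its log2 fold change was 0.08 (adjusted p = 0.58).

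**Figure D2:**
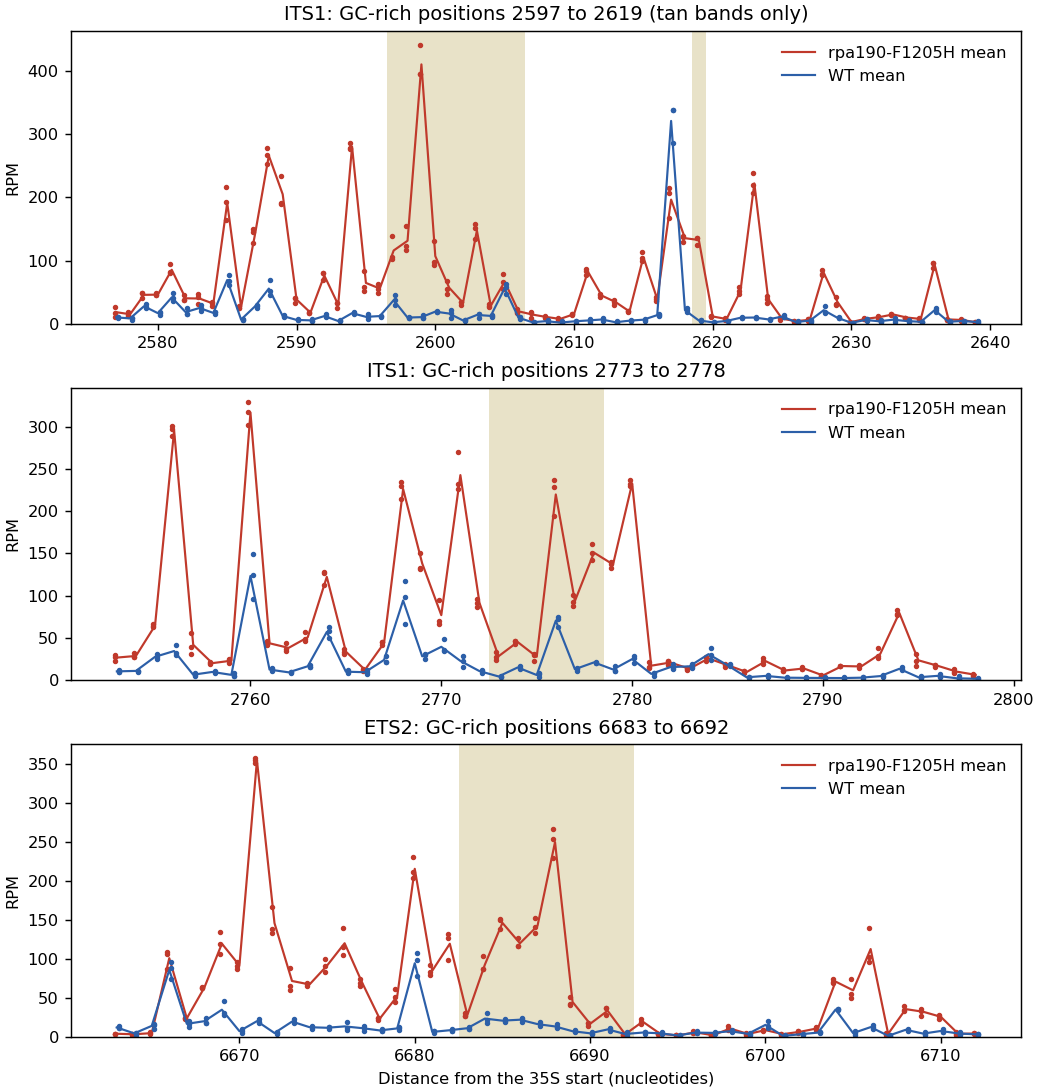
RPM at each position around the GC-rich runs of ITS1 and ETS2, against distance from the 35S start in nucleotides. Points are single libraries, lines are strain means (n = 3 each), and tan bands mark GC-rich positions. The mutant peaks at 2599, 2776, and 6688 lie inside the bands, and tall mutant peaks also lie outside them, among them 2594, 2771, and 6671, the last higher than 6688.

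Tall mutant peaks also occurred beside the runs at positions that were not GC-rich. Position 2594, with 6 of 10 G or C, averaged 281 ± 5.07 RPM in the mutant and 16.5 ± 1.70 RPM in WT, and position 2771, with 7 of 10, averaged 243 ± 24.2 RPM in the mutant and 22.8 ± 6.60 RPM in WT. These neighbors were chosen after their values were seen. When only other positions within 50 nucleotides served as the comparison, the ITS1 difference was 0.74.

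In ETS2 the 10 GC-rich positions form 1 run, 6683 to 6692, and all lie in the stretch of 35 positions that the deposited annotation names as cleaved by Rnt1, the yeast RNase III, which cuts the 3′ external spacer of the precursor. They averaged 87.7 ± 2.80 RPM in the mutant and 13.0 ± 0.275 RPM in WT, and the other ETS2 positions averaged 17.2 RPM in the mutant and 15.3 RPM in WT. The log2 ratio was 2.35 ± 0.11 in the mutant and -0.22 ± 0.22 in WT, a difference of 2.57 (exact permutation p = 0.1, adjusted p = 0.167), with no overlap. The run holds 4.74% of the ETS2 positions and had 20.3% ± 1.18 of the ETS2 reads in the mutant, against 4.12% ± 0.612 in WT.

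The rest of the Rnt1 stretch moved with it. Its 25 other positions averaged 74.3 ± 2.53 RPM in the mutant and 17.4 ± 2.42 RPM in WT, with 17 higher, 3 lower, and 5 not passing the test. Against these positions alone the difference in log2 ratio was 0.65 (exact permutation p = 0.1). Positions 6661 and 6662, just upstream of the stretch, held 4.16% ± 0.0759 of the ETS2 reads in the mutant and 48.2% ± 2.56 in WT. They belong to the other ETS2 positions, so they weigh on the WT mean of these and on the WT ratio. Whether the reads at 6661 and 6662 came from nascent RNA or from RNA cut by Rnt1 was not tested. The medians, averaged over libraries, were 68.7 RPM at GC-rich and 3.39 RPM at other ETS2 positions in the mutant. In WT they were 12.1 RPM at GC-rich and 1.56 RPM at other positions, so the negative WT ratio did not hold with medians. GC content and place within the Rnt1 stretch cannot be told apart in the comparison with the whole of ETS2.

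Position 6688 was the highest of the run, with 253, 230, and 267 RPM in the mutant and 12.4, 11.3, and 15.9 RPM in WT (log2 fold change 4.15, SE 0.13, adjusted p = 6.1e-08). It ranked 2 of 211 in the mutant and 36 in WT. The higher one in the mutant was position 6671, with 4 of 10 G or C, which had 356, 351, and 358 RPM in the mutant and 17.7, 19.2, and 23.0 RPM in WT (log2 fold change 4.09). Position 6672, with 5 of 10, had a larger log2 fold change than 6688, at 4.70. Both lie in the Rnt1 stretch and were picked with their values in view. Position 6686, the highest of the run in WT, had 117, 116, and 127 RPM in the mutant and 23.8, 22.7, and 19.1 RPM in WT (log2 fold change 2.41). The values dropped at the 3′ end of the run. Position 6692 had 2.83, 2.85, and 3.80 RPM in the mutant and 6.39, 0.493, and 3.56 RPM in WT, where 0.493 RPM is 1 read, so a difference was not detectable at this depth.

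ETS1 held only 4 GC-rich positions, too few for a ratio. Position 503 had 507, 594, and 619 RPM in the mutant and 245, 309, and 239 RPM in WT (log2 fold change 1.12, SE 0.13, adjusted p = 7.2e-05), and it ranked 14 of 700 in the mutant and 13 in WT. With equal spacer totals its log2 fold change was -0.44. Positions 362 and 363 rose more, with 85.8, 86.2, and 90.1 RPM at 362 in the mutant and 13.5, 15.8, and 15.2 RPM in WT (log2 fold change 2.48), and with a log2 fold change of 3.10 at 363. Position 552 was low in both strains, with 14.1, 12.4, and 14.6 RPM in the mutant and 12.1, 8.38, and 5.18 RPM in WT (adjusted p = 0.026). The median log2 fold change of the 4 was 1.80, and that of the other ETS1 positions was 1.87.

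**Figure D3:**
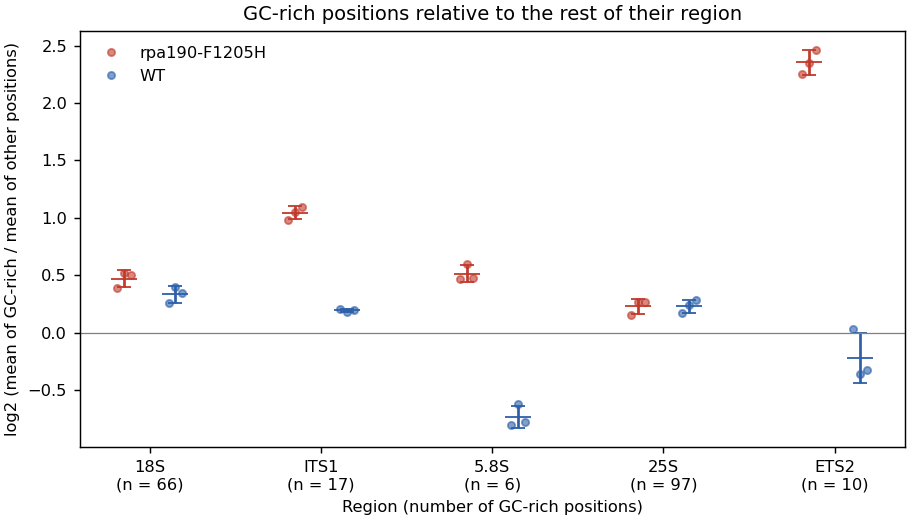
The log2 ratio of the mean RPM at GC-rich positions to the mean RPM at all other positions of the same region, for each library (points), with the mean and SD of each strain (n = 3 each). The mutant lies above WT with no overlap in ITS1, 5.8S, and ETS2, and the strains overlap in 18S and 25S.

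In the 5.8S gene the ratio of means had opposite signs in the strains. Its GC-rich positions all lie between 2984 and 3003, near the 3′ end of a gene that spans 2862 to 3019. GC content and place within the gene thus cannot be told apart in this comparison. Its 6 GC-rich positions averaged 205 ± 16.8 RPM in the mutant and 126 ± 5.96 RPM in WT, while the other 5.8S positions averaged 144 RPM in the mutant and 209 RPM in WT. The log2 ratio was 0.51 ± 0.08 in the mutant and -0.74 ± 0.10 in WT, a difference of 1.25 (exact permutation p = 0.1, adjusted p = 0.167). The medians were 140 RPM at GC-rich and 93.3 RPM at other positions in the mutant, and 124 RPM at GC-rich and 122 RPM at other positions in WT, and with medians the difference was 0.57. Of the 6 positions 4 were higher, 1 lower, and 1 did not pass, beside 20.5% of all 5.8S positions that were higher and 55.8% that were lower.

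The highest GC-rich position of 5.8S in the mutant, 2999, lies near the 3′ end of the gene and had 490, 595, and 522 RPM in the mutant and 141, 161, and 139 RPM in WT (log2 fold change 1.86, SE 0.11, adjusted p = 1.2e-06). It ranked 6 of 158 in the mutant and 71 in WT. Without it the difference in log2 ratio was 0.74, and with 7 of 10 G or C as the rule it was 0.42. Position 2984 went the other way, with 77.7, 90.0, and 87.4 RPM in the mutant and 181, 177, and 189 RPM in WT (log2 fold change -1.09, SE 0.09, adjusted p = 1.2e-05). The next position, 2985, had 228, 236, and 228 RPM in the mutant and 158, 183, and 163 RPM in WT, so 2 overlapping windows differed in sign.

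In the 18S gene the strains overlapped. The 66 GC-rich positions averaged 225 ± 10.6 RPM in the mutant and 206 ± 11.6 RPM in WT, and the other positions averaged 163 RPM in both. The log2 ratio was 0.47 ± 0.07 in the mutant and 0.33 ± 0.07 in WT, a difference of 0.14 (exact permutation p = 0.2, adjusted p = 0.25). In replicates 1 to 3 it was 0.39, 0.52, and 0.50 in the mutant and 0.25, 0.40, and 0.34 in WT. The mutant was thus above WT in each same-numbered pair, which this test does not use. Whether same-numbered libraries were handled together is not stated. Of the 66 positions 24 were higher, 21 lower, and 21 did not pass, beside 33.8% higher and 35.3% lower over all 18S positions. Position 2207 had the largest rise among the GC-rich positions of the genes. It had 231, 247, and 266 RPM in the mutant and 43.3, 55.2, and 54.7 RPM in WT (log2 fold change 2.26, SE 0.12, limma adjusted p = 6.4e-07). Other 18S positions reached a log2 fold change of 4.75. Position 1131, the highest 18S position of the set in the mutant, had 590, 606, and 600 RPM there and 325, 339, and 357 RPM in WT (log2 fold change 0.81). With equal spacer totals the log2 fold change of 1131 was -0.75. Position 1277, the highest in WT, was lower in the mutant, with 393, 515, and 538 RPM against 663, 767, and 789 RPM in WT (log2 fold change -0.63, adjusted p = 0.003).

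The longest 18S run, at 2159 to 2168, averaged 207 ± 10.9 RPM in the mutant and 183 ± 12.4 RPM in WT. Only 2 of its 10 positions were higher and 4 were lower. The run mean was higher in the mutant for 10 of the 19 runs of 18S and lower for 9, and in 25S it was higher for 19 of 37 runs and lower for 18.

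In the 25S gene the ratio was the same to 2 decimals, and the sign of the small difference depended on the setting. The 97 GC-rich positions averaged 192 ± 8.34 RPM in the mutant and 217 ± 8.35 RPM in WT, and the other positions 164 RPM in the mutant and 185 RPM in WT. The log2 ratio was 0.23 ± 0.07 in the mutant and 0.23 ± 0.06 in WT (exact permutation p = 1). Of the 97 positions 31 were higher, 29 lower, and 37 did not pass, beside 26.8% higher and 45.1% lower over all 25S positions.

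Position 5046 weighed heavily on the 25S mean. It had 1012, 1243, and 1285 RPM in the mutant and 2849, 2850, and 3789 RPM in WT (log2 fold change -1.42, SE 0.15, adjusted p = 3.5e-05), and it ranked 2 of 3396 in the mutant and 1 in WT. Without it the difference in log2 ratio was 0.14 (exact permutation p = 0.1). It lies in the run 5044 to 5048, whose 5 positions were all lower in the mutant, with a run mean of 464 ± 54.5 RPM in the mutant and 1099 ± 174 RPM in WT. Position 5045 had 109, 121, and 130 RPM in the mutant and 345, 311, and 418 RPM in WT, the largest fall among the 200 (log2 fold change -1.56, SE 0.13, adjusted p = 9.1e-06).

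Other 25S positions ran both ways. Position 3981 had 233, 234, and 244 RPM in the mutant and 42.9, 58.7, and 49.6 RPM in WT (log2 fold change 2.22), and position 5629 had 271, 271, and 286 RPM in the mutant and 71.0, 86.3, and 65.1 RPM in WT (log2 fold change 1.89). Position 5733 had 166, 163, and 167 RPM in the mutant and 396, 421, and 465 RPM in WT (log2 fold change -1.36). The strains did not overlap at any of the 3. The longest run of the set, the 12 positions 4915 to 4926, averaged 182 ± 9.36 RPM in the mutant and 139 ± 14.1 RPM in WT, with 4 positions higher and 2 lower.

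Positions were next ordered by the number of G or C in the last 10 nucleotides, which also gives the values on either side of the rule. In the spacers, positions with 7 of 10, just outside the rule, averaged 168 RPM in the mutant and 50.8 RPM in WT. Those with 8, just inside it, averaged 108 RPM in the mutant and 29.2 RPM in WT, and those with 9 averaged 116 RPM in the mutant and 14.8 RPM in WT. Positions with 0 to 2 averaged 26.9 RPM in the mutant and 16.5 RPM in WT. ETS1, the spacer with the highest mean in the mutant, held 30 of the 52 spacer positions with 7 of 10 and 4 of the 20 with 8, so these means mix spacers in different shares. Within ITS1 the mean was 101 RPM at 7 and 107 RPM inside the rule in the mutant, and 36.7 RPM at 7 and 18.9 RPM inside the rule in WT. The 13 ITS1 positions with 7 include position 2617, with 197 RPM in the mutant and 321 RPM in WT. It thus weighs heavily on the WT mean at 7. Within ETS2 the mean was 85.9 RPM at 7 and 87.7 RPM inside the rule in the mutant, and 8.28 RPM at 7 and 13.0 RPM inside the rule in WT. The lower pooled means inside the rule were thus not seen in each spacer. In the genes together the means were 110 RPM in the mutant and 127 RPM in WT at 0 to 2. At 7 they were 213 RPM in the mutant and 211 RPM in WT. They were lower at 8, with 197 RPM in the mutant and 201 RPM in WT. At 9 they were 252 RPM in the mutant and 255 RPM in WT. These means also mix genes that differed. At 7 the mutant and WT means were 207 and 160 RPM in 18S, 220 and 236 RPM in 25S, and 110 and 171 RPM in 5.8S. At 9 the mutant and WT means were 287 and 330 RPM in 18S, and 218 and 179 RPM in 25S.

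**Figure D4:**
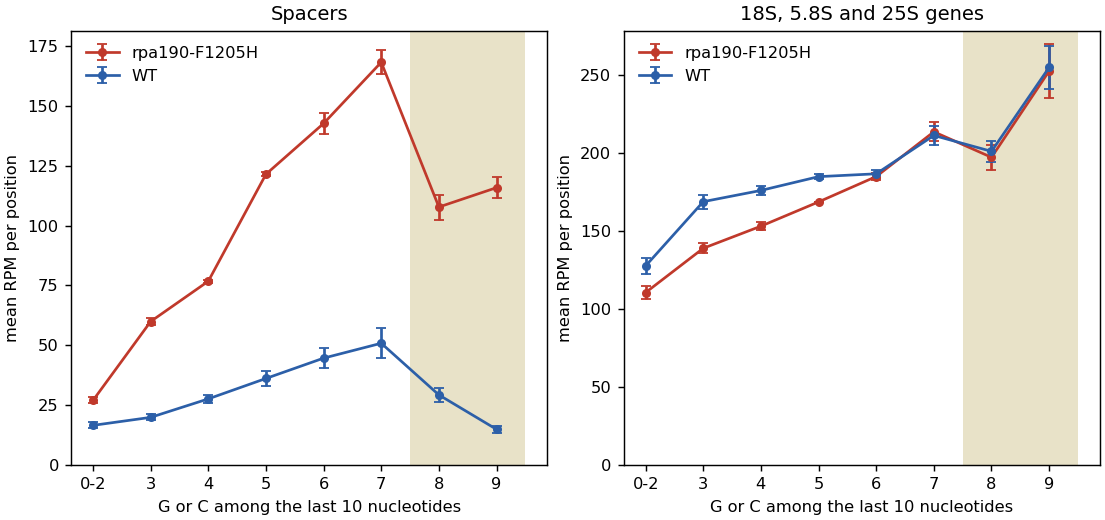
Mean RPM per position against the number of G or C among the last 10 nucleotides, in the spacers and in the 18S, 5.8S, and 25S genes. Points are means over the 3 libraries of a strain, bars are SD, and the tan band marks the GC-rich positions. In the pooled spacers the mutant lies above WT at every number of G or C. This did not hold in ETS2 at 0 to 2, with 7.60 RPM in the mutant and 26.2 RPM in WT. In the pooled genes the strains lie close together from 6 upward, which did not hold in each gene.

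GC-rich positions were also set against the AU-rich ones, where at most 2 of the last 10 nucleotides are G or C (765 positions in all). The log2 ratio of GC-rich to AU-rich was higher in the mutant in ITS1, at 2.06 ± 0.09 in the mutant and 0.91 ± 0.10 in WT, a difference of 1.15 (exact permutation p = 0.1, adjusted p = 0.167 over 5 regions). In 18S it was 0.95 ± 0.12 in the mutant and 0.67 ± 0.13 in WT, a difference of 0.29 (exact permutation p = 0.1, adjusted p = 0.167). In ETS2 it was 3.42, 3.50, and 3.67 in mutant replicates 1 to 3 and -0.75, -1.14, and -1.11 in WT replicates 1 to 3, a difference of 4.53 (exact permutation p = 0.1, adjusted p = 0.167), but the sign in WT did not hold with medians, which were 12.1 RPM at GC-rich and 1.01 RPM at AU-rich positions in WT and gave a difference of 1.75. In 5.8S, with 13 AU-rich positions, the difference was -0.20 (exact permutation p = 0.2) with means and -3.06 (exact permutation p = 0.1) with medians. The AU-rich medians there were 43.9 RPM in the mutant and only 3.76 RPM in WT, where the AU-rich mean was 25.7 RPM. The difference with medians thus rests on a low WT value. In 25S the difference was 0.10 (exact permutation p = 0.3). The strains overlapped in 5.8S and 25S with means.

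The rule does not use which of G and C is present, so windows with more G were compared with windows with more C where a region had at least 5 of each. In 25S the 58 G-led positions averaged 192 ± 8.27 RPM in the mutant and 187 ± 5.16 RPM in WT, and the 12 C-led ones 158 ± 3.74 RPM in the mutant and 114 ± 6.84 RPM in WT. The log2 ratio of G-led to C-led was 0.28 ± 0.03 in the mutant and 0.72 ± 0.05 in WT, a difference of -0.44 (exact permutation p = 0.1, adjusted p = 0.2 over 2 regions). With windows of 8 nucleotides the sign turned, to 0.40. Over the settings other than leaving out a library, the difference ranged from -0.44, the value given here, to 0.40. The medians in 25S, averaged over libraries, were 166 RPM at G-led and 115 RPM at C-led positions in the mutant. In WT they were 160 RPM at G-led and 101 RPM at C-led positions. In 18S, with 29 G-led and 21 C-led positions, the difference was -0.09 (exact permutation p = 0.3, adjusted p = 0.3), and the strains overlapped.

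GC-rich positions were not always among the highest of their region. The highest 10% of each region was taken, so 10% is the share of all its positions. In the mutant it held 14 of the 66 in 18S (21.2%), 11 of the 97 in 25S (11.3%), and 4 of the 17 in ITS1 (23.5%). It also held 5 of the 10 in ETS2 (50%), 1 of the 4 in ETS1, and 1 of the 6 in 5.8S. In WT these numbers were 11 in 18S (16.7%), 10 in 25S (10.3%), 3 in ITS1 (17.6%), 3 in ETS2 (30%), 1 in ETS1, and 0 in 5.8S. The shares in 25S were thus near that of all positions. Of the ITS1 positions, 1 was in the highest 10% in both strains.

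Among the libraries, replicate 1 had the lowest and replicate 2 the highest mean deviation from its strain's mean over the GC-rich positions. These deviations were small, at -0.036, 0.039, and -0.004 on the log2 scale in mutant replicates 1 to 3 and -0.042, 0.053, and -0.011 in WT replicates 1 to 3.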

How the data were processed

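NET-Seq libraries of 3 *rpa190-F1205H* and 3 WT cultures were analysed from 1 table of positions of the 35S gene, RDN37-2. The authors ligated a linker with a molecular identifier to RNA 3′ ends, removed duplicates with fqtrim, trimmed adaptors, aligned the reads, and took the coverage of 3′ ends. The submitters' processing notes name SAMtools 1.6, R 4.0.2, bedtools 2.26.0, STAR 2.7.1a, cutadapt 1.12, bcl2fastq 2.20.00, and build R64. The sources do not state how reads were assigned among rDNA copies. The deposited values are RPM, scaled by the authors to 1000000 over positions 1 to 6739. The authors also deposited means, medians, spreads, a ratio of the strains, and a p-value per position, and none of these was used. The columns were mapped to the strains through the labels and the supplementary primer names.

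RPM values were whole multiples of 1 read, to within 0.02 of a read, for 99.98% of 41148 values, so reads were recovered for count-based alternatives. A GC-rich position in the spacers held 9 to 2282 reads in a mutant library and 1 to 739 in a WT library, and one in the genes held 66 to 4738 in a mutant library and 36 to 11698 in a WT library. Positions that were not 0 in all libraries (6843) were tested on log2(RPM + 1) with limma 3.58.1 (R 4.3.3), strain only, with an adjusted p below 0.05 called. Fold changes on this scale understate those of low positions. Ratios within regions were tested by two-sided exact permutation in Python 3.11.15. The alternatives were pseudocounts of 0.1 and 10, a mean of at least 10, equal spacer totals, equal medians, edgeR 4.0.16 and DESeq2 1.42.0 on recovered reads, the replicate number as a block, leaving out each library, medians in place of means, leaving out the highest 1% of positions or 10 positions at region ends, and other definitions of GC-rich. The other positions ending in the same base, within 50 nucleotides, or in the Rnt1 stretch, leaving out the highest GC-rich position, and counting each run once were added after seeing the data. The model steps were run on simulated data in which 200 positions were changed, in random directions, on a profile shared by the strains. The simulation did not hold the difference in spacer share between the strains, so it does not test the scaling.

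The members, lists, and tests were chosen with earlier results of these data known. Named positions are the highest of each strain in each region, the 5 largest rises in the spacers (no fall there met the criteria), the 3 largest rises and falls in the genes, among those that passed, had no overlap between strains, and averaged 10 RPM or more, and the longest runs. Others of the same runs are named to describe them.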

Additional observations from a re-analysis of the deposited data

Results flagged for a closer look

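In 5.8S the ratio of GC-rich to other positions was above 0 on the log2 scale in all 3 mutant libraries and below 0 in all 3 WT libraries. The difference was 1.25, and the exact permutation p of 0.1 is the smallest that 3 libraries against 3 can give. This holds for means. The WT medians were 124 RPM at GC-rich and 122 RPM at other positions, and with medians the difference was 0.57. All GC-rich positions of 5.8S lie near its 3′ end, between 2984 and 3003. In ETS2 the ratio of GC-rich to AU-rich positions was above 0 in all 3 mutant libraries and below 0 in all 3 WT libraries, with a difference of 4.53 and the same p. With medians WT was also above 0, at 12.1 RPM at GC-rich and 1.01 RPM at AU-rich positions, and the difference was 1.75. Positions 6661 and 6662 held 4.16% ± 0.0759 of the ETS2 reads in the mutant and 48.2% ± 2.56 in WT. Whether their reads came from nascent RNA was not tested. All 10 GC-rich positions there form 1 run inside the Rnt1 stretch.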

How the results depend on the processing

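Scaling to equal spacer totals gave 12% of the GC-rich positions higher and 80% lower in the mutant, in place of 44% and 25.5%, and turned position 503 to -0.44 and position 1131 to -0.75. Scaling to equal medians gave 37% higher and 38% lower and moved the median of all positions by -0.17. edgeR called 87 higher and 65 lower, DESeq2 83 and 61. Leaving out a library gave 40.5% to 44% higher and 23.5% to 26.5% lower. Besides the scaling to equal spacer totals, under which position 2776 did not pass, all 18 named positions kept their direction and call under every setting tried.

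The difference in log2 ratio of GC-rich to other positions in 18S was -0.21 with at least 9 and 0.34 with at least 7 of 10 G or C, and 0.30 with each run counted once. That in ITS1 was -0.13 with the last 8 nucleotides, 1.43 with medians, and 1.26 with each run counted once. In 25S it was 0.20 with medians, 0.14 without the highest 1% of positions, 0.0657 with at least 7 and 0.46 with at least 9 of 10, 0.14 without the highest GC-rich position, 0.18 with each run counted once, and -0.15 with the last 8 nucleotides. Leaving out a library gave 0.10 to 0.18 in 18S, 0.82 to 0.88 in ITS1, 1.21 to 1.31 in 5.8S, -0.0317 to 0.0372 in 25S, and 2.50 to 2.70 in ETS2. For GC-rich against AU-rich positions the difference was -0.0726 in 18S with at least 9 of 10, 0.0590 in 5.8S with at least 7 of 10, and -0.0087 in 25S with the last 8 nucleotides. Its range over all settings was -0.0726 to 0.51 in 18S, 0.22 to 1.56 in ITS1, -3.06 (medians) to 0.0590 in 5.8S, -0.0087 to 0.61 in 25S, and 1.75 to 5.02 in ETS2. Leaving out a library gave 0.22 to 0.35 in 18S, 1.11 to 1.21 in ITS1, -0.28 to -0.13 in 5.8S, 0.04 to 0.18 in 25S, and 4.46 to 4.66 in ETS2. For G-led against C-led positions it was 0.14 with medians and -0.66 with at least 9 of 10 in 18S, and 0.40 in 25S with the last 8 nucleotides, and -0.14 to -0.05 in 18S and -0.46 to -0.42 in 25S when a library was left out. The definitions change which positions are members, and in ITS1 both 7 of 10 and the last 8 nucleotides take in position 2617. Beyond that the cause was not tested.

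The range over all other settings was 0.65 to 2.89 in ETS2, the lowest against the rest of the Rnt1 stretch, and 0.42 to 1.34 in 5.8S. Deviations of same-numbered libraries of the strains correlated weakly, at 0.13, 0.03, and 0.20. Of 6 libraries 5 correlated best with their own number. Over the GC-rich positions the mean deviation was lowest in replicate 1 and highest in replicate 2 of both strains. With the replicate number as a block 44.5% were higher and 27% lower, and the block fit of the ratios allows no p below 0.25. The exact permutation test of a ratio cannot reach 0.05 with 3 libraries per strain.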
